A study of Mus musculus with 32 samples.

Results

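The genes described here are 9 transcription factors of embryonic mesenchyme: Meis1, Meis2, Tbx15, Prrx1, Prrx2, En1, Six2, Twist1 and Twist2. They were chosen by name, with earlier results of these data known. Each probe set that the platform annotation assigns to 1 of them was taken, from both array types. All 9 had a probe set, of 18193 genes that have a probe set of their own, which gave 20 probe sets of 45137, with 13 on array A and 7 on array B. A filter on low values kept 19 of them, 13 on array A and 6 on array B. The samples are primary MEFs at early passage, that is, fibroblasts grown from mouse embryos, and their RNA was hybridised to 2 Affymetrix array types. There were 4 groups of 4 replicates, 16 RNA extracts in all: wild type cells without irradiation, wild type cells with it, and cells of the Oct-1 mutant without and with it. Oct-1, the product of Pou2f1, binds octamer motifs through its POU domain. The sources used here do not give the kind of mutation, the strain background, the dose, the time between irradiation and harvest, or whether replicates came from separate cultures or embryos, so p-values describe the spread between these samples only. The comparisons ask how irradiation and the Oct-1 genotype go with the level of these patterning genes, and whether the irradiation effect differs between the genotypes.

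Meis proteins are homeodomain factors of the TALE class, which also holds the Pbx proteins, and they bind DNA together with Hox and Pbx partners. Prrx1 and Prrx2 are paired-related homeodomain factors of limb bud and craniofacial mesenchyme, and Tbx15 is a T-box factor of limb and dermal mesenchyme. En1 is a homeodomain repressor that patterns limb, hindbrain and dermis, Six2 is a homeodomain factor of kidney and craniofacial progenitors, and Twist1 and Twist2 are basic helix-loop-helix factors of cranial mesenchyme and dermis. Cultured fibroblasts keep much of this positional gene expression from the embryo.

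All values are log2 probe set values as deposited, and a level of 1 probe set is not set against that of another. Markers of the labelled cell type were present: on array A, 10 of 10 fibroblast markers passed the filter, and their log2 summed signal was 16.27 to 16.75 over the 16 extracts. No marker passed of the 8 for skeletal muscle or the 6 for endothelium. Of the other cell types, 3 of 7 macrophage and blood markers, 1 of 6 for cartilage and bone, 2 of 6 epithelial, 4 of 6 neural and glial and 4 of 5 adipocyte markers passed on array A. On array B, 2 of 3 fibroblast, 1 of 1 epithelial, 1 of 2 neural, 0 of 1 macrophage and 0 of 1 muscle markers passed. The numbers in the sample titles fall into 2 runs, with replicates 1 and 2 of each group in the first and replicates 3 and 4 in the second, and the runs differ over many probe sets. The array medians spanned 6.16 to 6.28 for array A, and 3.67 to 3.78 for array B. The level of Pou2f1 itself was not analysed here.

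Promoter windows, 250 bases before to 50 bases after a start position (GRCm38.p6), were found for 8 of the 9 genes. For En1, Twist1, Twist2 and Six2 the window spans the annotated gene start (RefSeq). For Meis1, Meis2, Prrx1 and Prrx2 it lies wholly inside the annotated gene, so the outermost annotated starts of these genes were not searched. They were searched on both strands for the octamer ATGCAAAT that POU factors bind, the Meis hexamer TGACAG and the Twist E-box CATATG. The octamer was in 0 of the 8 windows and in 1.735% of all 32851 windows of that length, and the E-box in 0 of 8 and in 3.915%. The Meis hexamer was in 3 of 8, against 19.177% of all windows. The 3 are shown because they belong to genes with different results below: En1 and Twist2, called lower with irradiation averaged over genotypes, and Six2, which was not called. Capitals mark the hexamer as written or, as CTGTCA, on the other strand. En1 lies at chr1:120602237-120602536 (plus strand), with the hexamer's first base at position -74 from the start. Twist2 lies at chr1:91801211-91801510 (plus strand), with that base at -38. Six2 lies at chr17:85688205-85688504 (minus strand) and holds a copy on each strand. A match of these letters describes the sequence and is not a bound site.
En1: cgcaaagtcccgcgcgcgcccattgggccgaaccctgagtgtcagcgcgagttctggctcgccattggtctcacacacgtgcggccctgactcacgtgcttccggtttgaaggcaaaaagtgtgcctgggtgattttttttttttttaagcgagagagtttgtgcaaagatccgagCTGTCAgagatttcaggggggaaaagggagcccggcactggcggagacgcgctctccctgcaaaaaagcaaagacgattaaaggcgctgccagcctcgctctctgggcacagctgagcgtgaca
Twist2: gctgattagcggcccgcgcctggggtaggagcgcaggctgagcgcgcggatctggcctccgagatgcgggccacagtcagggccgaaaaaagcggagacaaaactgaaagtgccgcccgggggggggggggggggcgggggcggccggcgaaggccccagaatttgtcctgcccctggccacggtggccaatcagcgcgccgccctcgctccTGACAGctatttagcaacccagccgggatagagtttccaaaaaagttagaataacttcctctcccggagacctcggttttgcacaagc
Six2: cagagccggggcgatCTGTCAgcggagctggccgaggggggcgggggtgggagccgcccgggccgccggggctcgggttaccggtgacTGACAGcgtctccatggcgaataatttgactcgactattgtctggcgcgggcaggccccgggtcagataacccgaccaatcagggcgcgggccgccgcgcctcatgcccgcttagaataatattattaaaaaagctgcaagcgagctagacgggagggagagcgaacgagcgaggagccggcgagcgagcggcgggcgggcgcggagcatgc

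Irradiation went with lower levels of most of these genes. Averaged over both genotypes, 8 of 19 probe sets fell and 0 rose, and the 8 belong to 7 genes: Meis1, Meis2, Tbx15, Prrx1, En1, Twist1 and Twist2. Prrx2 and Six2 had no called probe set. The falls ran from 0.36 for Twist2 to 0.63 for Tbx15 on the log2 scale, a 1.28-fold to 1.55-fold lower level. A probe set is called where its Benjamini-Hochberg adjusted p in limma, over all kept probe sets of the array type, is under 0.05. On array A, 7 of 13 were called lower, where 5.47% of all probe sets were called lower and 7.38% higher. For array B it was 1 of 6, where 0.526% were called lower and 1.61% higher. The members were chosen with earlier results known, so these shares and those for genotype below are no independent evidence of an excess. The median change of the kept probe sets was -0.41 (array A) and -0.30 (array B), beside 0.01 and 0.02 over all probe sets.

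Within the wild type, 4 of 19 probe sets fell, those of Meis1 (1450992_a_at), Tbx15 (1418755_at), Prrx1 (1425528_at) and Twist1 (1418733_at), all on array A. The background of calls lower in the wild type was 1.5% on array A and 0.163% on array B. Within the Oct-1 mutant these 4 probe sets were again the called ones, against a background of 1.84% and 0.192%. In 18 of 19 probe sets the wild type mean was lower with irradiation, and in 16 of 19 the mutant mean was. Over all kept probe sets the median change was 0.008 on array A and 0.004 on array B in the wild type. In the mutant it was 0.007 and 0.027. Several of the 19 measure the same gene, so they are not independent. The fit behind these counts did not pair samples. A fit with the replicate block, which treats equal replicate numbers as pairs although the labels state no pairing, was set beside these counts. It called 8 probe sets of 6 genes in the wild type, adding Meis2 and Twist2, and 11 of 7 genes in the mutant, adding En1 as well. All called probe sets were lower in both fits. The block raised the share of all probe sets called lower too, to 4.49% on array A and 0.392% on array B in the wild type and to 5.43% and 0.452% in the mutant. In bulk RNA, fewer cells of a type and less RNA per cell cannot be told apart. Of the fibroblast markers on array A, Pdgfra fell with irradiation averaged over genotypes by 0.72 (SE 0.11) and Pdgfrb by 0.56 (SE 0.13). The other 8 of 10 were not called, and within each genotype only Pdgfra was. The log2 summed signal of the 10 fibroblast markers was 16.31 to 16.49 in wild type unirradiated and 16.27 to 16.39 in wild type irradiated extracts. In the mutant it was 16.32 to 16.75 without and 16.32 to 16.66 with irradiation. Of the other marker lists only Pparg, an adipocyte regulator, was called for irradiation averaged over genotypes (-0.44, SE 0.14), and it was not called within either genotype. The log2 summed signal of 5 adipocyte markers was 10.16 to 10.23 without and 9.94 to 10.12 with irradiation in the wild type, and 9.83 to 10.18 and 9.70 to 10.04 in the mutant. The part of these markers in the falls was not tested.

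**Figure D1:**
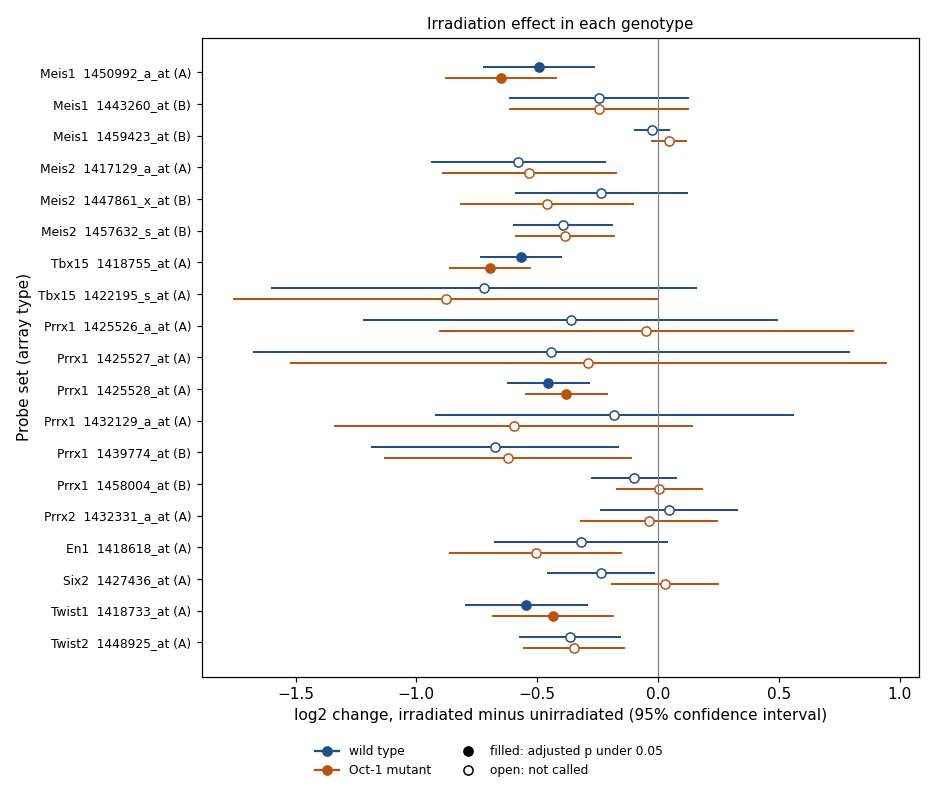
The log2 change with irradiation (irradiated minus unirradiated, horizontal axis) is shown for each of the 19 kept probe sets in wild type and in Oct-1 mutant cells, with lines for the 95% confidence interval of the limma model and filled points for adjusted p under 0.05. Filled points are those of Meis1, Tbx15, Prrx1 and Twist1 in both genotypes, between -0.38 and -0.70, and the long lines belong to the Prrx1 and Tbx15 probe sets that differ between the number runs.

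The irradiation effects of the genotypes did not differ beyond the replicate spread for any member. The interaction test in limma called 0 of 19 probe sets, and 0 of 19 had an unadjusted p under 0.05. Over all probe sets 0.0% were called on array A and 0.0% on array B. The smallest unadjusted p was 0.0912, for Six2. Differences of effect (mutant minus wild type) ran from -0.42 to 0.31, both ends being Prrx1 probe sets with a wide spread. The 95% interval of the difference was -0.48 to 0.16 for Meis1, -0.36 to 0.11 for Tbx15, -0.16 to 0.31 for Prrx1 1425528_at and -0.24 to 0.46 for Twist1, so these data do not exclude a difference within these bounds.

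The Oct-1 genotype went with higher levels of part of the genes. Averaged over irradiation states, 5 of 19 probe sets of 4 genes were higher in the mutant, those of Meis1, Meis2 (1 on each array), Prrx2 and En1, and 0 were lower. The differences lay between 0.44 for Meis2 on array B and 0.70 for Meis1, a 1.36-fold to 1.62-fold higher level. On array A, 4 of 13 were called higher, where 6.57% of all probe sets were called higher and 4.01% lower. On array B it was 1 of 6, where 0.955% were called higher and 0.948% lower. The median difference of the kept probe sets was 0.16 (array A) and 0.17 (array B), beside 0.00 and 0.02 over all probe sets.

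Without irradiation, 3 of 19 probe sets were higher in the mutant, those of Meis1, Prrx2 and En1, against a background of 2.59% on array A and 0.311% on array B. With irradiation 2 of 19 were, those of Meis1 and Meis2 on array A, against 2.62% and 0.2%. With the replicate block the counts were 5 in each state, of the genes Meis1, Meis2, Prrx2 and En1, and 7 for the averaged effect, which added Prrx1 and Twist1. Over all probe sets the block gave 6.42% higher on array A and 0.859% on array B without irradiation, 6.36% and 0.733% with it, and 12.4% and 2.04% averaged, each above its value without a block. Fibroblast markers also differed, averaged over irradiation states and without a block. On array A 5 of 10 were higher in the mutant, where 6.57% of all probe sets were called higher. Among them were the matrix proteoglycans Dcn (2.01, SE 0.23) and Lum (1.46, SE 0.30). Within each state 1 of the 10 was called, Dcn. The marker differences that follow are averaged as well. Of the other marker lists, Col2a1, the cartilage collagen, was lower in the mutant (-1.27, SE 0.11), and the 6 cartilage and bone markers had a log2 summed signal of 7.51 to 8.07 in wild type and 6.83 to 7.09 in mutant extracts. The epithelial keratin Krt18 was higher (0.46, SE 0.11), and the fatty acid carrier Fabp4 (-0.52, SE 0.09) and on array B the neuronal gene Map2 (-0.80, SE 0.16) were lower. Col2a1 and Fabp4 were also called within each state, while Krt18 and Map2 were called only averaged. The log2 summed signal was 6.53 to 6.90 in wild type and 6.80 to 7.18 in mutant extracts for the 6 epithelial markers, and 8.46 to 9.25 and 7.56 to 8.49 for the 2 neural markers of array B. No macrophage and blood marker was called for either effect. The part of these markers in the genotype differences was not tested. On chromosome 1, which holds Pou2f1, lie also Prrx1 at 2.55 Mb from it, En1 at 45.26 Mb and Twist2 at 74.02 Mb (GRCm38.p6), and the sources used here do not say which strain's chromosome 1 the mutant carries.

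**Figure D2:**
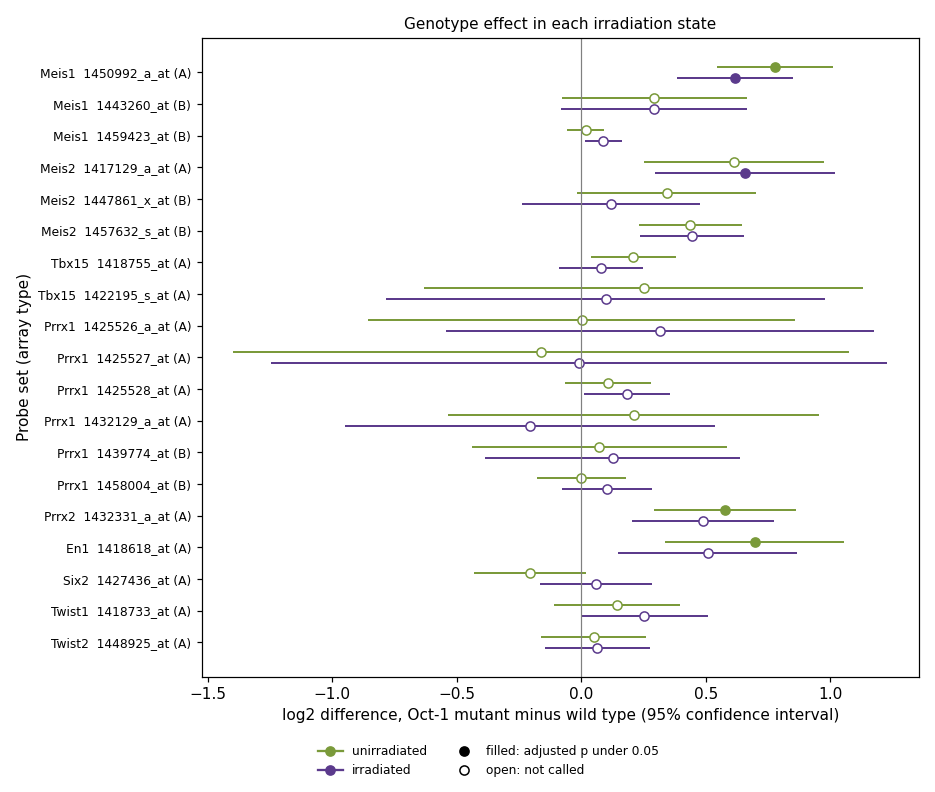
The log2 difference between genotypes (Oct-1 mutant minus wild type, horizontal axis) is shown for each of the 19 kept probe sets without and with irradiation, with lines for the 95% confidence interval of the limma model and filled points for adjusted p under 0.05. Filled points lie between 0.58 and 0.78, for Meis1 in both states, for En1 and Prrx2 without irradiation and for Meis2 on array A with irradiation.

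Meis1, a Hox cofactor, differed in both comparisons and in both states. The array A probe set 1450992_a_at read 8.13, 8.07, 8.03 and 8.08 in wild type unirradiated and 7.56, 7.42, 7.69 and 7.68 in wild type irradiated extracts. Mutant extracts read 9.06, 9.06, 8.52 and 8.79 without and 8.24, 8.25, 8.14 and 8.17 with irradiation. The irradiated extracts lay below the unirradiated ones in each genotype with no overlap, and the mutant lay above the wild type in each state. The lowest irradiated mutant value, 8.14, was barely above the highest unirradiated wild type value, 8.13, and that comparison was not tested. With irradiation it fell by 0.49 (SE 0.11, adjusted p = 0.0147) in the wild type and by 0.65 (SE 0.11, adjusted p = 0.00168) in the mutant. The mutant was higher by 0.78 (SE 0.11, adjusted p = 0.000387) without and by 0.62 (SE 0.11, adjusted p = 0.00305) with irradiation. The call in the wild type was lost without wild type irradiated replicate 2 (adjusted p = 0.0528). Averaged over genotypes, the change was -0.71 in the first run alone and -0.43 in the second alone, and the averaged genotype difference was 0.86 and 0.53.

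The array B probe sets of Meis1 were not called in any comparison. 1443260_at had group means of 4.80 ± 0.23 (SD, n = 4) and 4.56 ± 0.16 in wild type without and with irradiation and 5.10 ± 0.38 and 4.85 ± 0.24 in the mutant, with overlapping groups. Its averaged irradiation change was -0.24 (95% interval -0.51 to 0.02) and its genotype difference 0.29 (0.03 to 0.55, adjusted p = 0.294). 1459423_at lay within 3.78 to 3.95 in all 16 samples.

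Meis2, the paralog of Meis1, was measured by 1 probe set on array A and 3 on array B. On array A, 1417129_a_at read 6.82, 6.97, 7.14 and 7.14 in wild type unirradiated and 6.01, 6.67, 6.23 and 6.86 in wild type irradiated extracts. The mutant values were 7.53, 7.64, 7.55 and 7.80 without and 7.11, 6.78, 7.11 and 7.39 with irradiation. Each replicate number was lower with irradiation in both genotypes (4 of 4 each), and the groups overlapped only in the wild type, where replicate 4 of the irradiated extracts lay above replicate 1 of the unirradiated ones. The averaged fall was 0.56 (SE 0.12, adjusted p = 0.00579). Within one genotype it was not called, at -0.58 (SE 0.17, adjusted p = 0.076) in the wild type and -0.53 (SE 0.17, adjusted p = 0.0896) in the mutant, and with the replicate block it was called in both (adjusted p = 0.00933 and 0.013). It was called in the wild type also without wild type irradiated replicate 4 (adjusted p = 0.0233).

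The mutant had more Meis2 signal on 1417129_a_at, by 0.64 (SE 0.12, adjusted p = 0.00229) averaged over irradiation states. With irradiation the difference was 0.66 (SE 0.17, adjusted p = 0.0395) and without it 0.61 (SE 0.17, adjusted p = 0.0548, with the replicate block 0.00568). The call with irradiation was lost without any 1 of 9 extracts, namely replicates 2 and 3 of wild type unirradiated, 1 and 3 of wild type irradiated, 2 and 3 of Oct-1 mutant unirradiated, and 1, 3 and 4 of Oct-1 mutant irradiated, where its adjusted p rose to at most 0.132. Without irradiation, the difference was called when replicate 1 or 4 of wild type irradiated or replicate 2 of Oct-1 mutant irradiated was left out (lowest adjusted p = 0.0308). Within the first and second number runs the averaged irradiation change was -0.60 and -0.51 and the genotype difference 0.65 and 0.62.

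The array B probe set 1457632_s_at of Meis2 moved in the same directions. It read 8.26, 7.98, 8.25 and 8.31 in wild type unirradiated, 7.68, 7.79, 7.98 and 7.79 in wild type irradiated, 8.48, 8.83, 8.69 and 8.56 in the unirradiated mutant and 8.21, 8.29, 8.26 and 8.25 in the irradiated mutant. The groups did not overlap in any of the 4 comparisons, although in the wild type the lowest unirradiated and the highest irradiated extract both rounded to 7.98. The averaged fall with irradiation was 0.39 (SE 0.07, adjusted p = 0.00479) and the averaged genotype difference 0.44 (SE 0.07, adjusted p = 0.00276). With only 1 number run, neither was called, at -0.40 and -0.38 for irradiation (adjusted p = 0.147 and 0.14) and 0.52 and 0.36 for genotype (adjusted p = 0.053 and 0.139). Within one genotype the irradiation change was -0.39 and was not called in limma (adjusted p = 0.0956 in the wild type and 0.102 in the mutant). The genotype difference was 0.44 in each state (adjusted p = 0.0684 without and 0.0761 with irradiation, 0.0356 and 0.0345 with the replicate block). With irradiation it was called when replicate 2 of wild type unirradiated or of Oct-1 mutant unirradiated was left out (lowest adjusted p = 0.0477).

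The remaining Meis2 probe sets had low values. 1447861_x_at read 3.08 to 4.41 over all samples, with an averaged irradiation change of -0.35 (SE 0.12, adjusted p = 0.209, with the replicate block 0.0157) that was called without replicate 4 of Oct-1 mutant unirradiated (adjusted p = 0.0254). 1440091_at, at 2.37 to 2.53, was under the filter on low values and was not tested.

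Tbx15, a T-box factor of limb and skin mesenchyme, had the lowest adjusted p of the members for irradiation. Probe set 1418755_at read 9.03, 8.84, 8.75 and 8.91 in wild type unirradiated and 8.24, 8.24, 8.43 and 8.36 in wild type irradiated extracts. Mutant cells had 9.09, 9.16, 8.98 and 9.14 without and 8.35, 8.35, 8.38 and 8.51 with irradiation. No irradiated extract of either genotype reached the level of an unirradiated one. The fall was 0.57 (SE 0.08, adjusted p = 0.000369) in the wild type and 0.70 (SE 0.08, adjusted p = 5.09e-05) in the mutant. Averaged, it was 0.63 (SE 0.06, adjusted p = 1.35e-06), with -0.74 in the first run alone and -0.53 in the second alone. The genotype difference was not called, at 0.14 (SE 0.06, adjusted p = 0.119).

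The other Tbx15 probe set, 1422195_s_at, had a change of similar direction inside a much wider spread. It read 8.23, 8.49, 7.11 and 6.82 in wild type unirradiated, 7.36, 7.49, 6.69 and 6.23 in wild type irradiated, 8.60, 8.43, 7.25 and 7.38 in the unirradiated mutant and 7.59, 7.12, 6.53 and 6.91 in the irradiated mutant. In each group replicates 1 and 2 were higher than replicates 3 and 4, with means of 7.91 in the first and 6.87 in the second number run. The averaged irradiation change was -0.80 (SE 0.29, adjusted p = 0.0878, with the replicate block 0.000142), and it was -1.05 within the first run and -0.55 within the second. It was called without replicate 4 of wild type unirradiated (adjusted p = 0.0425).

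**Figure D3:**
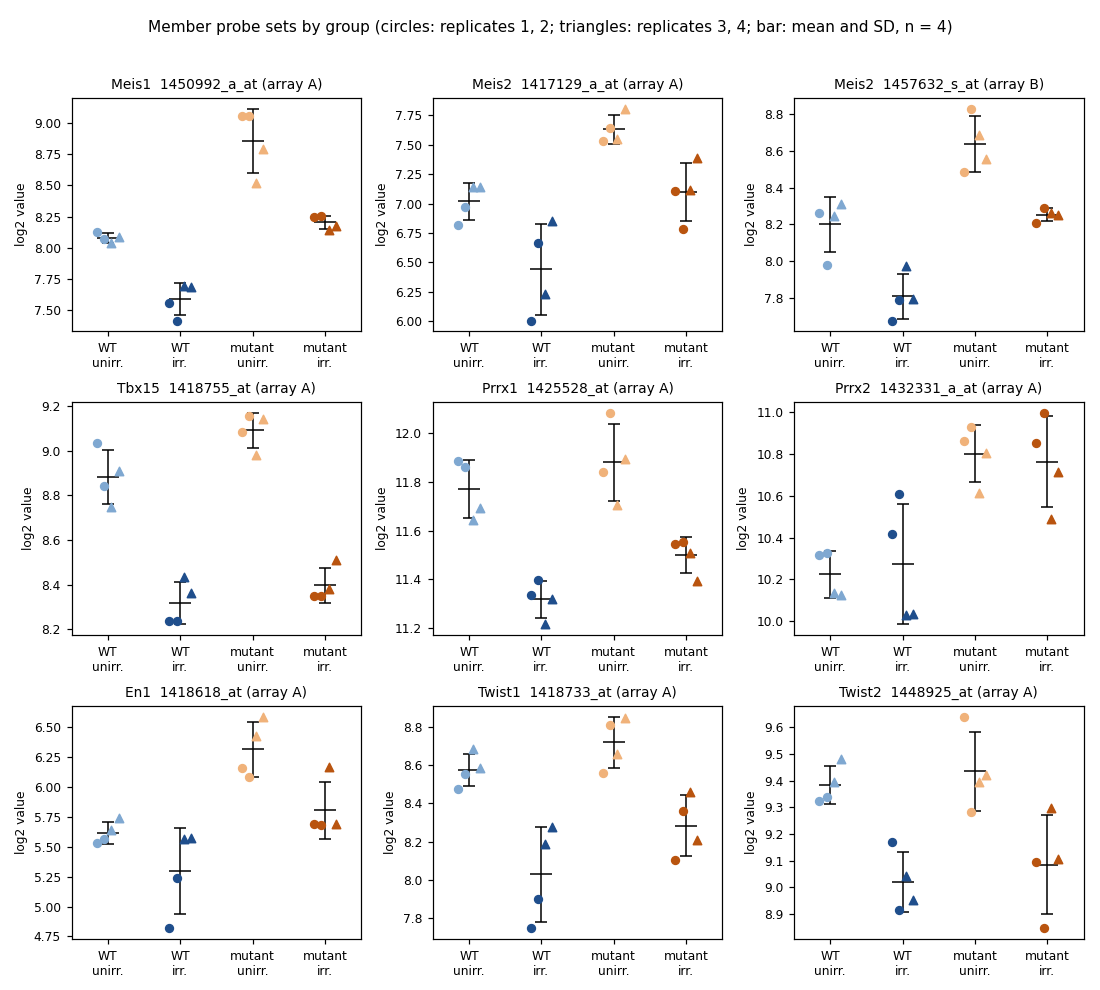
Log2 values (vertical axis, a separate scale in each panel) of 9 probe sets of 8 genes in the 4 groups, with circles for replicates 1 and 2, triangles for replicates 3 and 4, and bars for the mean and SD (n = 4). Tbx15 separates by irradiation and Meis1 by both factors, and Prrx2 is higher in the mutant, where 1 irradiated mutant extract (10.49) lies below 1 irradiated wild type extract (10.61). Meis1 runs from 7.42 in a wild type irradiated to 9.06 in a mutant unirradiated extract.

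Prrx1, a homeodomain factor of limb bud mesenchyme, had 4 probe sets on array A and 2 on array B, which did not behave alike. Probe set 1425528_at read 11.89, 11.86, 11.65 and 11.69 in wild type unirradiated and 11.34, 11.40, 11.22 and 11.32 in wild type irradiated extracts. In the mutant it read 11.84, 12.08, 11.70 and 11.89 without and 11.55, 11.55, 11.51 and 11.39 with irradiation. The irradiated extracts lay below the unirradiated ones in each genotype. The fall was 0.45 (SE 0.08, adjusted p = 0.0029) in the wild type and 0.38 (SE 0.08, adjusted p = 0.01) in the mutant, and averaged over genotypes the change was -0.46 within the first and -0.37 within the second number run. The genotype difference was 0.15 (SE 0.06, adjusted p = 0.119, with the replicate block 0.0184).

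The other 3 array A probe sets of Prrx1 followed the number runs. 1425526_a_at lay between 10.29 and 11.11 in the first run and between 9.08 and 10.17 in the second, so that no extract of one run reached the other. 1425527_at lay between 9.54 and 10.96 in the first and between 8.12 and 9.07 in the second, again without overlap. 1432129_a_at had means of 9.47 and 8.67 in the runs, which overlapped. The difference of the second from the first run was -1.01, -1.47 and -0.81 on these probe sets and -0.14 on 1425528_at. A difference between runs of at least 0.8 in either direction was found in 3.34% of all kept probe sets on array A and 1.87% on array B. None of the 3 was called for irradiation or genotype without a block. Their averaged irradiation changes were -0.21 (SE 0.28), -0.37 (SE 0.41) and -0.39 (SE 0.25), and with the replicate block only 1432129_a_at was called (adjusted p = 0.0193).

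On array B, Prrx1 1439774_at read 10.64, 10.69, 9.85 and 9.90 in wild type unirradiated, 9.76, 9.90, 9.40 and 9.31 in wild type irradiated, 10.60, 10.71, 10.27 and 9.78 in the unirradiated mutant and 9.75, 9.98, 9.75 and 9.39 in the irradiated mutant. Each replicate number was lower with irradiation in both genotypes. The averaged change was -0.65 (SE 0.17, adjusted p = 0.0658, with the replicate block 0.00028), at -0.81 within the first and -0.49 within the second run. It was called without replicate 3 of wild type unirradiated or replicate 4 of Oct-1 mutant unirradiated (lowest adjusted p = 0.0213). Probe set 1458004_at had an averaged change of -0.05 (95% interval -0.17 to 0.08).

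**Figure D4:**
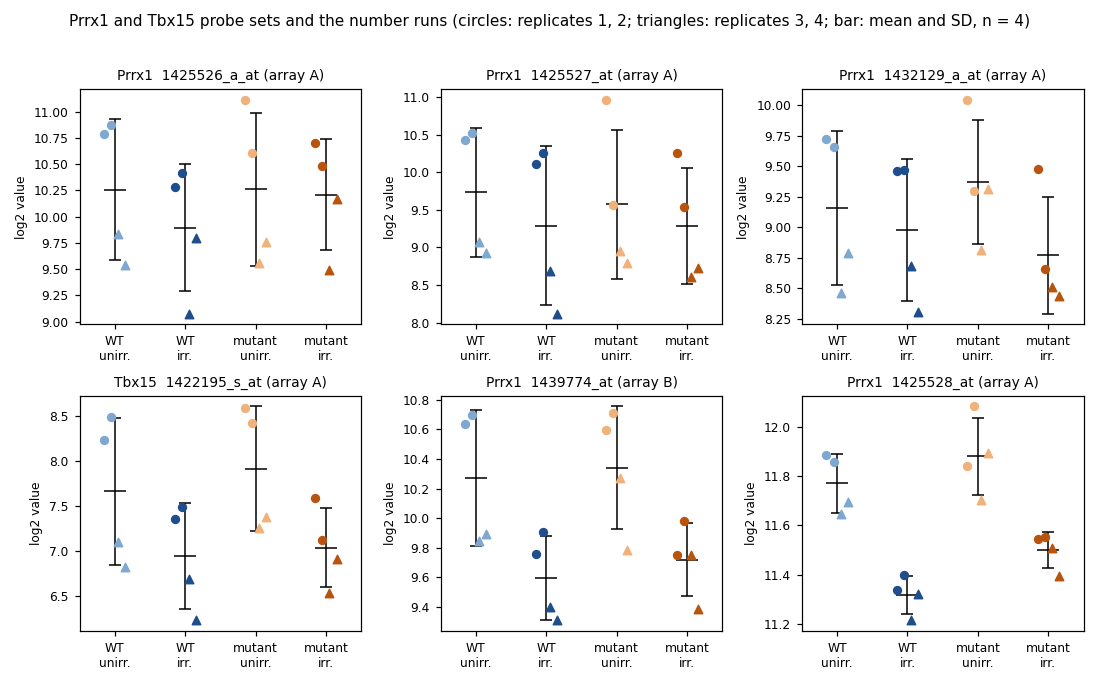
Log2 values (vertical axis, a separate scale in each panel) of 5 Prrx1 probe sets and 1 Tbx15 probe set in the 4 groups, with circles for replicates 1 and 2 (first number run), triangles for replicates 3 and 4 (second number run), and bars for the mean and SD (n = 4). On Prrx1 1425526_a_at and 1425527_at no circle lies as low as a triangle, while on 1425528_at the runs overlap and the irradiated groups lie lower.

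Prrx2, the close paralog of Prrx1, was higher in the mutant and was not called for irradiation. Its probe set 1432331_a_at read 10.32, 10.33, 10.13 and 10.12 in wild type unirradiated and 10.42, 10.61, 10.03 and 10.03 in wild type irradiated extracts. Values in the mutant were 10.86, 10.93, 10.61 and 10.81 without and 10.85, 10.997, 10.49 and 10.71 with irradiation. Without irradiation the mutant lay above the wild type with no overlap, and with irradiation 1 mutant extract (10.49) lay below 1 wild type extract (10.61). The averaged genotype difference was 0.53 (SE 0.09, adjusted p = 0.00139), at 0.49 within the first and 0.57 within the second number run. It was 0.58 (SE 0.13, adjusted p = 0.0224) without and 0.49 (SE 0.13, adjusted p = 0.0519, with the replicate block 0.000241) with irradiation. The averaged irradiation change was 0.00 (95% interval -0.20 to 0.20). The call without irradiation was lost without any 1 of 5 extracts, replicates 3 and 4 of wild type unirradiated and 1, 2 and 4 of Oct-1 mutant unirradiated (highest adjusted p = 0.0657). With irradiation the difference was called without wild type irradiated replicate 2 or Oct-1 mutant irradiated replicate 3 (lowest adjusted p = 0.0157).

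The paralog pairs were compared extract by extract on array A, with pairs and test chosen after the values had been seen. In each extract the log2 value of one paralog was subtracted from that of the other, and the effect on this difference was tested with a two-sided exact permutation test of 1296 permutations within genotype or irradiation state and number run, whose smallest p is 0.0015. Benjamini-Hochberg adjustment was over the 6 tests. Prrx2 minus Prrx1 (1425528_at) was 0.42 larger with irradiation and 0.39 larger in the mutant, each at p = 0.0015, adjusted p = 0.0045, by the exact permutation test. The pair was chosen on these values, so the test is no independent evidence. Meis2 minus Meis1 differed by 0.02 (exact permutation, adjusted p = 0.887) with irradiation and by -0.06 (adjusted p = 0.781) with genotype. Twist2 minus Twist1 differed by 0.13 and -0.14 (adjusted p = 0.414 each, exact permutation). Those 4 differences were within the spread of these extracts, which does not show that the paralogs respond alike.

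En1, a homeodomain repressor of limb and dermal patterning, was lower with irradiation averaged over genotypes and higher in the mutant. Probe set 1418618_at read 5.53, 5.56, 5.64 and 5.74 in wild type unirradiated and 4.82, 5.24, 5.57 and 5.58 in wild type irradiated extracts. In the mutant it read 6.16, 6.09, 6.43 and 6.59 without and 5.70, 5.68, 6.17 and 5.69 with irradiation. These values were low, with a mean of 5.76 over all extracts, against a filter cut of 4.97 and array A medians of 6.16 to 6.28. Wild type irradiated replicate 1 (4.82) lay under that cut. Irradiated and unirradiated extracts overlapped in both genotypes, while mutant and wild type did not overlap in either state. The averaged genotype difference was 0.60 (SE 0.12, adjusted p = 0.0033), at 0.62 and 0.59 within the runs. Without irradiation it was 0.70 (SE 0.17, adjusted p = 0.0295), and with irradiation 0.51 (SE 0.17, adjusted p = 0.124, with the replicate block 0.0144). The averaged fall with irradiation was 0.41 (SE 0.12, adjusted p = 0.0308), with -0.48 within the first and -0.35 within the second run.

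Several En1 calls lay near the threshold and changed when 1 extract was left out. The averaged irradiation call was lost without any 1 of 8 extracts, replicates 3 and 4 of wild type unirradiated, 2 of wild type irradiated, 3 and 4 of Oct-1 mutant unirradiated, and 1, 2 and 4 of Oct-1 mutant irradiated (highest adjusted p = 0.0619). The genotype call without irradiation was lost without replicate 1, 2 or 3 of wild type unirradiated or 3 or 4 of Oct-1 mutant unirradiated (highest adjusted p = 0.0944). In the mutant alone the irradiation change of -0.51 (SE 0.17, adjusted p = 0.105, with the replicate block 0.0136) was called without Oct-1 mutant irradiated replicate 3 (adjusted p = 0.0499).

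Six2, a progenitor factor of kidney and craniofacial mesenchyme, was not called in any comparison. Probe set 1427436_at read 6.11, 6.11, 6.48 and 6.03 in wild type unirradiated, 5.96, 5.78, 5.99 and 6.07 in wild type irradiated, 5.80, 6.02, 6.02 and 6.08 in the unirradiated mutant and 6.01, 6.02, 6.04 and 5.96 in the irradiated mutant. The highest value, 6.48, was wild type unirradiated replicate 3, and the 4 groups overlapped. The averaged change was -0.10 with irradiation (95% interval -0.26 to 0.05) and -0.07 with genotype (-0.23 to 0.08).

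Twist1, which directs cranial mesenchyme and limb development, fell with irradiation in both genotypes. Probe set 1418733_at read 8.47, 8.55, 8.68 and 8.59 in wild type unirradiated and 7.75, 7.90, 8.19 and 8.28 in wild type irradiated extracts. In the mutant it read 8.56, 8.81, 8.66 and 8.84 without and 8.10, 8.36, 8.46 and 8.21 with irradiation. The irradiated extracts lay below the unirradiated ones in each genotype with no overlap. The fall was 0.55 (SE 0.12, adjusted p = 0.0133) in the wild type and 0.44 (SE 0.12, adjusted p = 0.0452) in the mutant. The mutant's call was lost without any 1 of 11 extracts (highest adjusted p = 0.119), that is, all but replicates 1, 3 and 4 of wild type irradiated, 1 of Oct-1 mutant unirradiated and 3 of Oct-1 mutant irradiated. Averaged, the change was -0.49 (SE 0.08, adjusted p = 0.000921), at -0.57 and -0.41 within the runs, and the genotype difference was 0.20 (SE 0.08, adjusted p = 0.153, with the replicate block 0.0344).

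Twist2, the paralog of Twist1 in dermis and bone precursors, fell in the averaged comparison. Probe set 1448925_at read 9.32, 9.34, 9.40 and 9.48 in wild type unirradiated and 9.17, 8.91, 9.04 and 8.95 in wild type irradiated extracts. In the mutant it read 9.64, 9.28, 9.40 and 9.42 without and 9.09, 8.85, 9.30 and 9.11 with irradiation. The groups did not overlap in the wild type, and in the mutant irradiated replicate 3 lay above unirradiated replicate 2. The averaged fall was 0.36 (SE 0.07, adjusted p = 0.00277), at -0.39 and -0.32 within the runs. Within the wild type it was -0.36 (SE 0.10, adjusted p = 0.0505, with the replicate block 0.00848) and within the mutant -0.35 (SE 0.10, adjusted p = 0.0546, with the replicate block 0.00962). In the wild type it was called without wild type irradiated replicate 1, Oct-1 mutant unirradiated replicate 1 or Oct-1 mutant irradiated replicate 2 or 3, and in the mutant without Oct-1 mutant unirradiated replicate 2 or irradiated replicate 3 (lowest adjusted p = 0.0273 and 0.0255). The genotype difference was 0.06 (95% interval -0.09 to 0.20).

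Other genes of the same families were counted from lists, with 1 probe set per gene and array type and the averaged effects. Over all probe sets, 7.38% rose and 5.47% fell with irradiation on array A and 1.61% and 0.526% on array B, while 6.57% were higher and 4.01% lower in the mutant on array A and 0.955% and 0.948% on array B. The median over all probe sets was 0.006 and 0.015 for irradiation on arrays A and B and 0.002 and 0.022 for genotype, and nothing here is called particular to a list. Of the TALE partners, which hold the Pbx and Tgif genes, 7 of 9 on array A and 3 of 4 on array B passed the filter. With irradiation 1 of the 7 rose, the repressor Tgif1 (0.30, SE 0.08), and 0 fell. The mutant had more of the Hox cofactor Pbx3 (0.25, SE 0.06) and of Pbxip1 (0.51, SE 0.15), which binds Pbx proteins, and less Pbx2 (-0.20, SE 0.06). None of the 3 on array B was called. The median irradiation change of the 7 was 0.10, and their median genotype difference was 0.18.

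Of the limb and mesenchymal homeobox and T-box factors, 6 of 28 on array A and 8 of 11 on array B passed. With irradiation, 2 of the 6 fell, the homeodomain factors Irx3 (-0.47, SE 0.07) and Lhx9 (-0.45, SE 0.10), and 3 of the 8, Tbx18 (-0.46, SE 0.09), Emx2 (-0.39, SE 0.09) and Shox2 (-0.43, SE 0.10), while 0 rose. Irx3 (-0.58, SE 0.07) and Lhx9 (-0.40, SE 0.10) were also lower in the mutant, the opposite sign from Meis1, Meis2, Prrx2 and En1, and no gene of the list was higher there. The median irradiation change was -0.31 (array A) and -0.11 (array B), and the median genotype difference -0.28 and 0.00. Of the relatives of Six2 and their Eya and Dach partners, 3 of 8 and 6 of 6 passed. Eya1, a coactivator of Six2 and its relatives, fell with irradiation on array B (-0.55, SE 0.13), and none of the others was called for either effect.

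Of the partners and inhibitors of Twist and other factors of mesenchymal transition, 11 of 17 on array A and 7 of 7 on array B passed. None was called for irradiation, with medians of -0.08 and 0.00. For genotype 3 of the 11 were higher in the mutant: Id4 (0.72, SE 0.14) and Id3 (0.35, SE 0.09), which block basic helix-loop-helix proteins, and Snai2 (0.27, SE 0.07), a zinc finger repressor. Of the other mesenchymal regulators, 12 of 23 and 10 of 13 passed. With irradiation 6 of the 12 fell, with a median over the 12 of -0.44, and the 4 with the smallest adjusted p were the nuclear receptor Nr2f2 (-0.57, SE 0.08), the zinc finger factor Tshz1 (-0.65, SE 0.10), Ebf3 (-0.76, SE 0.15) and the nuclear receptor Nr2f1 (-0.87, SE 0.20). On array B 0 of 10 were called for irradiation. The mutant had more Gli2, an effector of hedgehog signalling (0.45, SE 0.07), Ebf1 (0.46, SE 0.11) and, on array B, Tshz2 (0.69, SE 0.09), and less Foxc2 (-0.49, SE 0.09).

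For each member the 3 probe sets of other genes with the highest Pearson r over the 16 array A samples were found, as a description across extracts that share groups and number runs. Closest to Meis1 were Hoxc8 (r = 0.974), Tgfbi (0.938) and Pdzrn3 (0.936), and closest to Meis2 were Plat (0.933), Rab9 (0.911) and Sh3bp5 (0.909). Tbx15 was most like Fzd2 (0.963), Aurka (0.953) and Cdkn2d (0.953), and Prrx1 most like Tshz1 (0.928), Hmgcs1 (0.919) and Gas1 (0.91). The genes nearest to Prrx2 were Pam (0.949), Mgst1 (0.942) and Ctse (0.941), and those nearest to En1 were Adamts5 (0.949), Dhrs3 (0.948) and Plat (0.936). Twist1 had Fzd7 (0.94), Lmo7 (0.928) and Trim33 (0.921) closest, Twist2 had Morf4l2 (0.851), Creb3l2 (0.837) and Slc7a6 (0.836), and Six2 had Cntln (0.862), Tsr2 (0.856) and Mydgf (0.822). Among the members themselves r was 0.887 between Tbx15 1418755_at and Prrx1 1425528_at and 0.873 between Tbx15 1422195_s_at and Prrx1 1432129_a_at, a pair of probe sets that both differ between the number runs. The Tbx15 probe sets had r = 0.571 with each other.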

How the data were processed

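Each of 16 RNA extracts was hybridised to both array types, giving 32 samples. The values are log2 probe set values as the authors deposited them. Their range, 0.265 to 15.75 for array A and 0.0973 to 15.51 for array B, gave the log base, and the sources used here do not name the summarisation or scaling method. The number of arrays limits the precision. No further scaling was applied. An array A title lacks its replicate number (the unirradiated mutant's replicate 1), which came from the array B label.

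Controls were left out, and the filter on low values kept means from the 40th percentile up (4.97 for array A, 3.36 for array B), which left 13576 and 13507 probe sets. limma 3.58.1 (R 4.3.3) was run once per array type, with 4 group means and an intensity trend, and Benjamini-Hochberg adjustment was over all kept probe sets of the array type, with calls at an adjusted p under 0.05. The fits were tested on simulated data with independent samples and no number runs, which does not bear on spread shared within a run. Python 3.11.15, numpy 2.4.6, pandas 2.3.3 and matplotlib 3.10.9 were also used.

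The main fit, which gave the calls, holds no block and does not pair samples. Deviations from the group means had correlations of 0.32 to 0.72 (array A) and 0.24 to 0.60 (array B) between samples of one number. A fit with the replicate numbers, taken from the labels, as a block was therefore added, which treats equal numbers as pairs. Samples of the same run with other numbers correlated nearly as well (median 0.56 and 0.40, against 0.58 and 0.44 for the same number). These correlations therefore do not tell pairing by number from a shared run. The fit with the replicate block stands beside the counts and beside part of the single results whose call it changes.

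Every kept member probe set is named. From 5 lists of related genes, up to 4 called genes per averaged effect are named, and 8 marker lists were checked. The members, the lists and the paralog tests were chosen with earlier results of these data known. Alternatives changed the filter, scaling, variance prior, blocks, number runs and extracts used.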

Additional observations from a re-analysis of the deposited data

Results flagged for a closer look

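Of 76 groups of 4 samples checked, 2 held a sample apart from the others, and chance marks about 1 group in 20. En1 1418618_at read 6.17 in Oct-1 mutant irradiated replicate 3, while the other 3 replicates lay between 5.68 and 5.70. Meis2 1447861_x_at read 3.34 in Oct-1 mutant irradiated replicate 4, while the other 3 lay between 3.58 and 3.62.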

How the results depend on the processing

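The 26 called values of single member probe sets (averaged effects and effects within 1 genotype or irradiation state) were recomputed 722 times: 656 kept their direction and call, 66 kept the direction only, and none changed sign. Of those 66, 39 came from leaving out 1 extract, 16 from using 1 number run and 11 from other alternatives. Of the 88 values not called, 25 gained a call under at least 1 alternative, 24 of them with a block. Counts of called member probe sets moved most with the block. With the replicate block 8 were called for irradiation in the wild type, 11 in the mutant, 5 for genotype without and 5 with irradiation, and with the number run block 9, 11, 5 and 5, against 4, 4, 3 and 2 without a block. Shares over all probe sets rose too with these blocks, so the rise is not particular to the members. On array A, calls lower with irradiation went from 1.5% to 4.49% and 4.35% in the wild type. In the mutant they went from 1.84% to 5.43% and 5.3%. Calls higher in the mutant went from 2.59% to 6.42% and 6.35% without irradiation, and from 2.62% to 6.36% and 6.35% with it. On array B these shares were 0.163% to 0.311% without a block and 0.392% to 0.859% with one. Within the first number run the irradiation counts were 6 in the wild type and 5 in the mutant, and within the second 2 and 1. Of all 13576 array A probe sets, 258 and 320 were called lower in the first run and 147 and 140 in the second. Of 13507 on array B, 37 and 34 were, and then 2 and 3. For genotype with irradiation, no filter and a 20th percentile filter each gave 1 call, and for averaged genotype a 60th percentile filter gave 3, since it removes En1 and the array A probe set of Meis2. Over all array A probe sets, 298 of 22626 were called higher in the irradiated mutant than in the irradiated wild type without a filter, and 335 of 18101 with the 20th percentile filter. For averaged genotype the 60th percentile filter gave 668 of 9051 called higher in the mutant. Leaving out 1 extract at a time gave 3 to 5 calls for irradiation in the wild type, 3 to 6 in the mutant, 7 to 9 averaged, 1 to 4 for genotype without irradiation, 1 to 3 with it and 5 averaged. The lowest count for genotype without irradiation, 1, came without wild type unirradiated replicate 3 or Oct-1 mutant unirradiated replicate 4. Counts over all probe sets moved as well. Without that wild type extract, 251 of 13576 array A probe sets were called higher for genotype without irradiation, against 352 with all extracts. The lowest with irradiation, 1, came without replicate 3 of either unirradiated group, replicate 1 or 3 of wild type irradiated, or replicate 1 or 4 of Oct-1 mutant irradiated. The interaction count was 0 under each alternative. Array background is not among the values used here. The causes of these shifts were not tested.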
